A study of Mus musculus with 45 samples.

Results

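The genes described here encode the laminin chains and the integrin subunits. They were chosen by symbol (Lama, Lamb or Lamc with a number, every Itga and Itgb gene, and the integrin-like genes Itgbl1 and Itgb2l), which gave 39 of the 55367 gene symbols measured: 11 laminin chains, 18 integrin alpha chains and 10 integrin beta or beta-like genes. The study asked how the microenvironment of tumors and distant tissues differs between breast cancer lines of different metastatic ability. Female Balb/c mice, described as young adults, carried porous polycaprolactone scaffolds under the skin and were inoculated orthotopically with 2000000 cells of 67NR (nonmetastatic), 4T07 (invasive but not colonizing) or 4T1 (highly metastatic to the lung), sister lines from the same mouse tumor. Healthy mice that carried scaffolds but received no tumor cells were the control group. At day 14, RNA from primary tumors, scaffolds, lungs and spleens was read by 3' end sequencing in 45 libraries, 3 for each of 15 groups. Each model is a single cell line in an immune-competent host, so that a difference between models cannot be told apart from any other property of those lines, and a tumor library holds tumor and host cells together.

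Laminins are heterotrimers of an alpha, a beta and a gamma chain that form, with type IV collagen and nidogen, the sheet of basement membrane under epithelia and around vessels. Integrins are alpha-beta heterodimers that hold cells to such matrix or to other cells: alpha-6/beta-4 and alpha-3/beta-1 bind laminin, alpha-1 and alpha-2 with beta-1 bind collagen, alpha-5, alpha-8, alpha-v and alpha-IIb chains bind the RGD peptide of fibronectin and related ligands, and the beta-2 and beta-7 integrins belong to leukocytes. Lama3 and Lamb3 encode chains of the epithelial laminin that anchors hemidesmosomes through alpha-6/beta-4, whereas alpha-IIb/beta-3 is the fibrinogen receptor of platelets and alpha-M/beta-2 (Mac-1, or CD11b/CD18) a complement receptor of neutrophils and macrophages.

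Library totals ranged from 3491888 to 8175380 counts (median 5149589), and levels are given as CPM, the count scaled to a library total of 1000000. No pair of replicate libraries held identical values. Every member had a count in some library, and 29 of the 39 had one in every library. The 3 lung libraries of 4T07 mice stood apart from the other lungs: the summed level of 6 alveolar epithelium markers was 5935 to 14756 CPM against 29078 to 38025 CPM in the other 9, and that of 5 exocrine pancreas markers 341 to 439.6 against 8.12 to 28.2 CPM. One 4T07 scaffold (library 22) and one 4T07 tumor (library 31) held more erythroid cell markers (25114 and 22223 CPM) than any other scaffold or tumor. Lung markers were also read outside the lung, where the alveolar epithelium list reached 27.6 CPM in a 67NR scaffold, so that traces of lung genes under about 1 CPM elsewhere carry little weight. The annotation places another gene over part of several members (Pelo over Itga1, Galk1 over Itgb4, Haspin over Itgae, Cerkl over Itga4), and the strand setting of the counting is not given in the sources used here. A bulk measurement cannot tell fewer cells of a type from less RNA per cell.

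The healthy mice showed which tissue each gene belonged to before any tumor. Between control scaffolds and control lungs, 23 of 38 members tested differed more than 2-fold at an adjusted p under 0.05 (9 higher and 14 lower in scaffolds, against 30.0% of all 21602 genes tested). Scaffolds against spleens gave 24 members (16 higher, 8 lower, against 31.5% of all genes), and lungs against spleens 22 (16 higher, 6 lower, against 36.8%). Lungs exceeded spleens in 9 of the 11 laminin chains, and no chain was called in the other direction.

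The epithelial laminin chains marked the lung. Lama3, an alpha chain of epithelial laminin, measured 66.2, 61.1 and 86.1 CPM in the control lungs, 0.839, 1.58 and 2.05 CPM in the scaffolds and 0.388, 0.231 and 0.647 CPM in the spleens. Its partner Lamb3 read 30.5, 28.5 and 33.0, 2.10, 0.317 and 2.52 and 1.17, 1.15 and 2.16 CPM in the same order. For both chains every lung library lay above every scaffold and spleen library, with log2 differences between lung and spleen of 7.27 ± 0.33 and 4.31 ± 0.40 (SE). Lama5, the alpha chain of laminin-511 in vessels and epithelia, followed the same order at 21.8, 23.3 and 26.7 CPM in lungs, 0.839, 2.22 and 2.99 CPM in scaffolds and 0.971, 1.38 and 1.72 CPM in spleens. Of the mesenchymal and vascular chains, Lama4, Lamb1 and Lamc1 were shared by lung and scaffold and scarce in spleen. Lama2 averaged 33.2 CPM in scaffolds, 47.7 CPM in lungs and 15.2 CPM in spleens, and Lamb2 27.1, 70.9 and 27.1 CPM in the same order. Lama4, found in endothelial basement membrane, measured 86.4, 89.8 and 88.3 CPM in scaffolds, 68.5, 77.7 and 76.1 CPM in lungs and 5.24, 4.38 and 3.23 CPM in spleens. Lamb1, the most widely used beta chain, read 88.3, 134 and 145, 141, 133 and 151 and 5.24, 6.69 and 4.74 CPM, and scaffold and lung overlapped for it. Lamc1, its usual gamma partner, gave 38.4, 42.1 and 56.2, 45.5, 35.5 and 52.0 and 8.16, 6.00 and 7.55 CPM, again with scaffold and lung overlapping. Scaffolds exceeded spleens by 4.63 ± 0.22 for Lamb1, 4.52 ± 0.20 for Lama4 and 2.82 ± 0.22 for Lamc1 on the log2 scale.

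Among the integrins, lungs led in Itga8, Itgb6, Itga3 and Itga1. Itga8, which pairs with beta-1 on interstitial fibroblasts and binds nephronectin, measured 160.0, 159 and 136 CPM in lungs, 1.26, 0.950 and 0.315 CPM in scaffolds and 16.1, 6.69 and 7.12 CPM in spleens. Itgb6, the epithelial partner of alpha-v that activates TGF-beta, read 46.4, 45.4 and 35.8 CPM in lungs and no more than 0.475 CPM in any control scaffold or spleen. Itga3, the laminin-binding alpha chain, gave 77.6, 68.5 and 115 CPM in lungs, 2.10, 3.80 and 3.62 CPM in scaffolds and 13.2, 20.1 and 16.6 CPM in spleens. These 3 genes differed between scaffold and lung by -7.31 ± 0.40, -6.27 ± 0.34 and -4.53 ± 0.26 (log2, SE). The collagen receptor chain Itga1 measured 780.3, 866 and 852 CPM in lungs against 99.4, 151 and 96.5 CPM in scaffolds.

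Scaffolds led in the myeloid integrin chains. Itgam measured 308, 279 and 235 CPM in scaffolds, 20.4, 18.9 and 22.3 CPM in lungs and 34.0, 33.5 and 28.0 CPM in spleens. Itgax (CD11c, on dendritic cells and some macrophages) read 419, 435 and 552, 39.0, 39.1 and 29.8 and 32.6, 38.1 and 45.7 CPM. Every scaffold library lay above every lung and spleen library for both, with log2 differences from the lung of 3.96 ± 0.19 and 3.91 ± 0.19. Itgb2, their common beta chain, gave 362, 419.9 and 416 CPM in scaffolds against 94.8, 84.9 and 62.8 CPM in lungs. Itgb3 measured 66.5, 67.9 and 81.1, 7.84, 6.13 and 7.28 and 36.3, 38.3 and 39.5 CPM in scaffolds, lungs and spleens, and Itgbl1, a secreted integrin-like protein of matrix-producing cells, 43.2, 30.4 and 48.2, 6.97, 7.93 and 5.34 and 3.30, 1.85 and 2.16 CPM. Itga11, a collagen receptor chain of fibroblasts, read 12.6, 10.8 and 10.5 CPM in scaffolds and 1.92, 2.89 and 3.72 CPM in lungs. The macrophage and fibroblast marker lists were likewise higher in scaffolds (6285 to 7508 and 8321 to 12063 CPM) than in lungs (2648 to 3432 and 1307 to 1514 CPM). Their part in these differences was not tested.

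Spleens exceeded both other tissues in Itgad, Itga2b and Itgb7, and were also highest in Itga4 and Itgal. Itgad, an alpha chain of red pulp macrophages, measured 41.8, 24.2 and 8.84 CPM in spleens and at most 1.22 CPM in any control scaffold or lung. Its spleen libraries spread widely but did not overlap the other tissues. Itga2b, the megakaryocyte and platelet chain, gave 21.9, 24.9 and 17.9 CPM in spleens, 2.94, 3.33 and 3.15 CPM in scaffolds and 3.14, 5.77 and 3.24 CPM in lungs. Itga4, which pairs with beta-1 or beta-7 on leukocytes and binds VCAM-1, read 149.7, 178 and 175 CPM in spleens against 55.6, 47.4 and 46.3 CPM in lungs (-1.78 ± 0.15 on the log2 scale, lung minus spleen). The lymphocyte chain Itgb7 measured 43.7, 44.8 and 36.0 CPM in spleens, 16.9, 16.4 and 13.6 CPM in lungs and 5.87, 17.7 and 21.7 CPM in scaffolds. Itgal (the alpha chain of LFA-1) gave 68.5, 72.9 and 63.6 CPM in spleens, 17.2, 38.6 and 20.6 CPM in scaffolds and 55.3, 51.8 and 42.4 CPM in lungs, and was called against scaffolds but not against lungs (-0.49 ± 0.23, lung minus spleen). Itga4 was likewise not called against scaffolds (-0.87 ± 0.15, scaffold minus spleen). The beta chain Itgb1, the common partner of most matrix-binding alpha chains, was present throughout, from 232 to 804 CPM. Itga11 and Itgb3 were also lower in lungs than in spleens (-1.53 ± 0.34 and -2.45 ± 0.17).

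**Figure D1:**
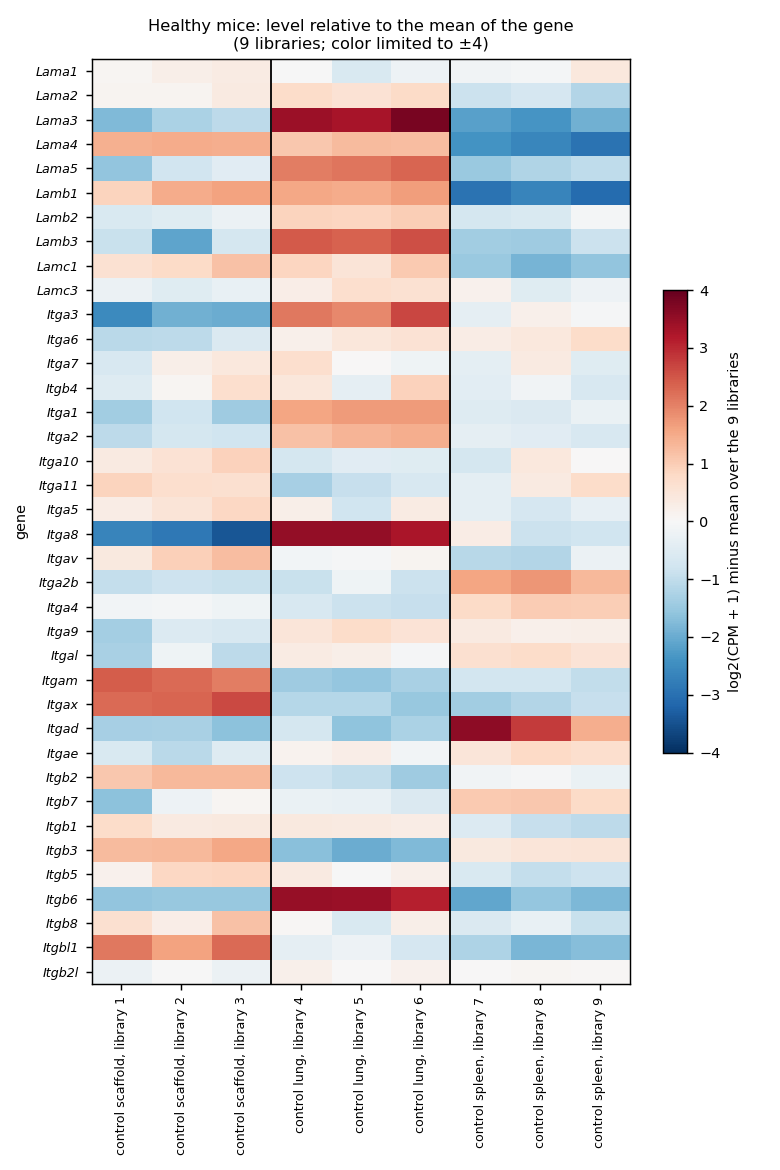
Levels of 38 of the genes in the 9 libraries of healthy mice, each drawn as log2(CPM + 1) minus the mean of that gene over the 9 libraries (red above, blue below, color limited at 4). Lama3, Lamb3, Itga8 and Itgb6 are red in the lung columns, Itgam and Itgax in the scaffold columns, and Itgad and Itga2b in the spleen columns.

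In the primary tumors genes of epithelial laminin chains and of their receptor rose in 4T1. Against 67NR tumors, 16 of the 39 members differed in 4T1 tumors (14 higher, 2 lower, adjusted p under 0.05 and more than 2-fold), where 20.7% of all 20508 genes tested did. The members had a median log2 difference of 0.83, and all genes one of 0.09. In 4T07 against 67NR tumors 13 members differed (12 higher, 1 lower, against 28.9% of all genes), a share close to that background, and in 4T1 against 4T07 tumors 10 (6 higher, 4 lower, against 8.61%). All 3 comparisons use the same 9 libraries in a single fit.

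Lama3 and Lamb3 were high in 4T1 tumors alone. Lamb3 read 0.269, 0.560 and 0 CPM in 67NR, 2.21, 0.907 and 0.564 CPM in 4T07 and 25.6, 17.6 and 19.9 CPM in 4T1 tumors, a log2 difference of 5.93 ± 0.55 (SE, adjusted p = 1.04e-06) between 4T1 and 67NR. Lama3 gave 1.08, 1.68 and 0.847, 2.01, 0.726 and 2.26 and 20.1, 13.3 and 16.4 CPM, and differed by 3.57 ± 0.42 (SE, adjusted p = 1.01e-05) between 4T1 and 67NR and by 3.41 ± 0.38 between 4T1 and 4T07. For Lamb3 and Lama3 the 4T1 libraries were apart from all others, and the 4T07 libraries were not called against 67NR.

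Of the 4 laminin-binding integrin chains, Itgb4, Itga3 and Itga6 rose in the same tumors. Itgb4, the hemidesmosome beta chain, measured 2.15, 4.48 and 3.11 CPM in 67NR, 40.3, 75.1 and 38.9 CPM in 4T07 and 169.5, 200.5 and 215 CPM in 4T1 tumors. It increased in steps that did not overlap, by 3.74 ± 0.32 (SE, adjusted p = 5.09e-07) from 67NR to 4T07 and by 1.97 ± 0.24 (SE, adjusted p = 6.34e-05) from 4T07 to 4T1. Itga3 gave 289.7, 183 and 161, 231, 313 and 191 and 608, 669 and 729 CPM, so that 67NR and 4T07 overlapped and 4T1 was higher than both (1.47 ± 0.22 and 1.50 ± 0.22). Itga6, which pairs with Itgb4, read 129, 111 and 111, 142, 139.5 and 185 and 258, 252 and 298 CPM. Its 4T1 difference from 67NR of 1.01 ± 0.17 lay at the 2-fold limit and fell just under it in several alternative fits. Itga7, the laminin receptor chain of muscle, was not called in any tumor comparison. Among the collagen receptor chains, Itga2 measured 2.96, 3.36 and 2.54, 9.43, 10.9 and 11.6 and 69.1, 59.4 and 72.5 CPM in 67NR, 4T07 and 4T1 tumors, again in 3 groups without overlap (4.30 ± 0.24 (SE, adjusted p = 4.56e-09) for 4T1 against 67NR). Itgb1, their beta chain, was 781, 827 and 812 CPM in 4T1 and 448 to 556 CPM in the other tumors, a difference under 2-fold.

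The 7 epithelium markers (Epcam, Cdh1, keratins and claudins) were also highest in 4T1 tumors. Their sum was 1199 to 1315 CPM in 4T1, 189.7 to 259 CPM in 4T07 and 20.3 to 37.5 CPM in 67NR tumors, with 7 of 7 markers called higher in 4T1 than in 67NR and 6 of 7 higher than in 4T07. In 4T07 against 67NR tumors 6 of 7 were called higher. There Itgb4 and Itga2 were called too, but Lama3, Lamb3, Itga3 and Itga6 were not. Their part in the laminin and integrin differences was not tested. Of 32 genes that work with these proteins (basement membrane partners, cytoplasmic adaptors and other integrin ligands), 9 were called higher and 1 lower when 4T1 was set against 67NR. Of all genes 20.7% were called there. Fermt1, the epithelial kindlin that activates integrins, averaged 114 against 0.277 CPM (8.37 ± 0.30 on the log2 scale). Tenascin C (Tnc) averaged 275 against 6.80 CPM (5.14 ± 0.28), and nephronectin (Npnt), a ligand of alpha-8/beta-1, 178 against 5.35 CPM (4.85 ± 0.27). Against 4T07 tumors Fermt1, Npnt and Tnc were the only 3 of the 32 called, a share close to the 8.61% of all genes. All were higher in 4T1 (Fermt1 5.92 ± 0.22, Npnt 3.33 ± 0.23, Tnc 1.96 ± 0.23). The adaptor Parvb was the 1 lower in 4T1 than in 67NR (-1.65 ± 0.24).

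Among the members that were higher in 4T1 than in both other tumors, which include Lama3, Lamb3, Itgb4, Itga2 and Itga3, RefSeq promoters (GRCm38.p6, 250 bases before to 50 after the start) were at hand for Lamb3, Itga2 and Itga3, and for 25 of the 39 members in all. They are shown because these genes moved together, with letters of 4 searched motifs in capitals. The motifs, sought on both strands, were AP-1 (TGANTCA, in 7.81% of 32851 listed promoters), an E-box (CACCTG, 20.2%), the GC box (GGGCGG, 35.7%) and a PU.1 form of the ETS site (GAGGAAGT, 3.2%). No base lay in 2 motifs. A match is a description of the letters only.
Lamb3, chr1:193301744-193302043, plus strand: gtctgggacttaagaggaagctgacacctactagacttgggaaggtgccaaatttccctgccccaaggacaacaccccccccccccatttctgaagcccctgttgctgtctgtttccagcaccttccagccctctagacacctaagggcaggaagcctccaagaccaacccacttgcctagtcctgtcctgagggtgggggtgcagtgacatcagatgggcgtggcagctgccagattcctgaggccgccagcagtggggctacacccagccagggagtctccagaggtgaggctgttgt
Itga2, chr13:114932051-114932350, minus strand: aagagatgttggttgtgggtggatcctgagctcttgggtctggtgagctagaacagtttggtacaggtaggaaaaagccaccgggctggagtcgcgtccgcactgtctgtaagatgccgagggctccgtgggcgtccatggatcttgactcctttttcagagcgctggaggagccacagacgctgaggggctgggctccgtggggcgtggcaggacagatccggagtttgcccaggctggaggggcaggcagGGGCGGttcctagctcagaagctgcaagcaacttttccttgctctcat
Itga3, chr11:95076665-95076964, minus strand: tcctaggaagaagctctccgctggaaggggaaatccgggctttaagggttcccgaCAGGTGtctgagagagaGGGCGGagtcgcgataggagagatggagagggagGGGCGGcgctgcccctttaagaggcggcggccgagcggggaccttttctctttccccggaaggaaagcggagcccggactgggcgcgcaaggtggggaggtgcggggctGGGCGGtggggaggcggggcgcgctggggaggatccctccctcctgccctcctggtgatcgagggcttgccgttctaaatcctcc
Lamb3 and Itga3 each have 2 listed starts, and the more upstream window of each is shown. The Lamb3 window held none of the 4 motifs, and the window of its other start 2 E-boxes. The Itga2 window held 1 GC box, and the Itga3 window 1 E-box and 3 GC boxes, against 1 AP-1 motif and 1 GC box at its other start.

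Other members rose in both invasive tumors. Lama5 measured 23.4, 20.4 and 18.9 CPM in 67NR, 122, 179.8 and 141 CPM in 4T07 and 122, 128 and 139 CPM in 4T1 tumors. Both invasive lines were apart from 67NR (2.57 ± 0.19 (SE, adjusted p = 9.41e-08) and 2.43 ± 0.19 (SE, adjusted p = 1.32e-07)) and overlapped with each other. Itgb3 gave 4.84, 4.20 and 3.95, 21.5, 16.3 and 21.7 and 22.9, 25.0 and 27.8 CPM, rising by 1.94 ± 0.25 in 4T07 and 2.34 ± 0.24 in 4T1. Itgax read 7.26, 8.11 and 2.54, 33.1, 25.4 and 32.7 and 22.1, 17.8 and 17.5 CPM (2.09 ± 0.31 and 1.48 ± 0.31 against 67NR), and Itga1 rose by 1.47 ± 0.26 and 1.86 ± 0.26. The fibroblast marker list moved with them, at 929 to 1136 CPM in 67NR and 4799.8 to 8895 CPM in the other tumors, and its part was not tested. Lama4 rose in 4T1 against 67NR (1.08 ± 0.20, and 0.92 without 67NR library 21), while Lamb1, Lamb2 and Lamc1 stayed under a 2-fold difference in every tumor comparison of the fit, which scales libraries by TMM factors. CPM carries no such factor, and the mean CPM of 4T1 against 67NR differed by slightly more (Lamb1 409 against 201 CPM and 0.83 ± 0.14 in the fit, Lamc1 136 against 62.2 CPM and 0.93 ± 0.21).

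Itgb8 and Itgb7 were highest in 4T07. Itgb8, which pairs with alpha-v to activate TGF-beta, measured 0.269, 0.839 and 0.282 CPM in 67NR, 7.63, 16.7 and 9.31 CPM in 4T07 and 3.66, 3.48 and 3.67 CPM in 4T1 tumors. It was higher in 4T07 than in 67NR (4.29 ± 0.52 (SE, adjusted p = 1.26e-05)) and lower in 4T1 than in 4T07 (-1.59 ± 0.36; not called without 4T07 library 32, when it was -1.16). Itgb7 gave 8.60, 4.20 and 5.08, 29.5, 18.3 and 24.8 and 9.87, 6.35 and 3.24 CPM, with 4T07 above both other lines (1.77 ± 0.36 against 67NR and -1.83 ± 0.34 for 4T1 against 4T07). Itgal was also higher in 4T07 than in 67NR (1.07 ± 0.21), a call that was lost without 4T07 library 31 or 33, when its difference was 0.94 or 0.99. Leukocyte markers were divided: 4 of 5 B cell, 4 of 6 T cell and 8 of 8 neutrophil markers were higher in 4T07 than in 67NR tumors. In the same comparison 3 of 7 macrophage, 2 of 4 NK cell and 3 of 5 mast cell markers were lower and none higher. Between 4T1 and 4T07 tumors no B or T cell marker was called, and 5 of 8 neutrophil and 3 of 4 NK cell markers were lower in 4T1. The B cell list summed to 4.76 to 11.3 CPM in 67NR, 26.9 to 149 CPM in 4T07 and 7.77 to 41.3 CPM in 4T1. The part of these markers was not tested. The platelet chain Itga2b went the other way, at 20.2, 19.3 and 17.5 CPM in 67NR, 15.1, 8.16 and 3.67 CPM in 4T07 and 3.47, 4.71 and 2.16 CPM in 4T1. It fell by 2.65 on the log2 scale from 67NR to 4T1 (SE 0.40). Its 4T07 libraries spread widely. The 4T07 difference from 67NR of -1.31 was -0.98 without library 33, and the difference between 4T1 and 4T07 of -1.34 came to -0.76 without 4T07 library 31 and was then not called. The platelet and megakaryocyte marker list summed to 185 to 238 CPM in 67NR, 177 to 418 CPM in 4T07 and 128 to 185 CPM in 4T1 tumors, and 4 of 6 of its markers tested were higher in 4T07 than in 67NR, where Itga2b was lower. A further 5 calls rested on means under 5 CPM in both groups: Itga8 higher in 4T07 than in 67NR, Lama1 and Itgb8 higher and Itga10 lower in 4T1 than in 67NR, and Itgad lower in 4T1, where no library held a count, than in 4T07 (at least 2.64-fold, against 3 counts per library). Itgb2l, at 0 in every 67NR library and 3.61, 0.544 and 0 CPM in 4T07, was called through library 31 (at least 1.67-fold).

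**Figure D2:**
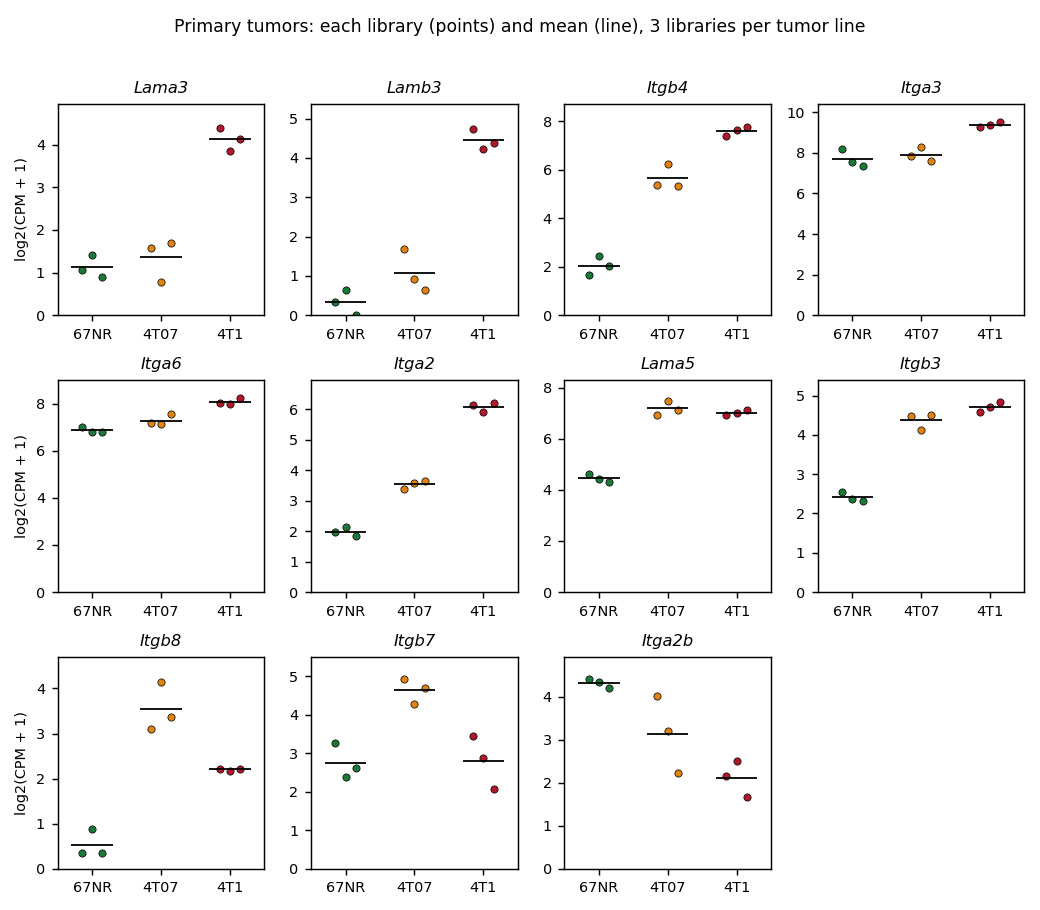
Levels of 11 members in the 9 primary tumor libraries as log2(CPM + 1); points are libraries, lines group means, and each panel starts at 0 with its own scale. Lama3, Lamb3, Itgb4 and Itga2 have all 4T1 points above all others, Lama5 and Itgb3 have both invasive lines above 67NR, and Itga2b is lowest in 4T1.

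In lungs of 4T07 mice several laminin chains were lower than in control, and Itgam, Itgad, Itga2b and Itgb3 were higher. Against control lungs 19 of 39 members differed (7 higher, 12 lower, adjusted p under 0.10 and more than 2-fold), where 29.0% of all 21937 genes did. The median over the members was -0.33, against -0.01 over all genes. In 4T1 lungs 4 members differed from control, all higher (against 4.61%), and in 67NR lungs 1 (against 4.25%). Between 4T1 and 4T07 lungs 15 members differed (11 higher and 4 lower in 4T1, against 23.5%).

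In 4T07 lungs 6 of the 11 laminin chains fell by more than 2-fold, where 3015 of the 21937 genes tested were called lower, and none was called higher. Lama4 measured 68.5, 77.7 and 76.1 CPM in control, 12.3, 11.4 and 15.2 CPM in 4T07 and 54.1, 46.6 and 58.2 CPM in 4T1 lungs. Lama3 read 66.2, 61.1 and 86.1 CPM in control, 11.6, 11.4 and 20.6 CPM in 4T07 and 62.9, 58.6 and 73.6 CPM in 4T1 lungs. The 4T07 libraries lay below every other lung library for both genes, by -2.45 ± 0.17 (SE, adjusted p = 3.76e-10) and -2.23 ± 0.22 (SE, adjusted p = 6.81e-08) against control. Lama2, the alpha chain of muscle and interstitial laminin-211, gave 48.8, 44.0 and 50.2 CPM in control, 8.04, 14.5 and 12.8 CPM in 4T07 and 37.2, 31.3 and 39.1 CPM in 4T1 lungs (-1.95 ± 0.18 for 4T07). Lamb1 measured 141, 133 and 151, 48.1, 31.0 and 49.7 and 124, 120.2 and 149 CPM in the same order (-1.66 ± 0.16 for 4T07). Neither overlapped between 4T07 and any other group. Lamb2 (-1.49 ± 0.17) and Lamb3 (-1.47 ± 0.21) fell as well. Lamb2 read 29.6, 18.2 and 24.9 CPM in 4T07 and 75.0, 73.3 and 79.3 CPM in 4T1 lungs, and Lamb3 11.0, 7.43 and 13.5 and 27.2, 36.7 and 36.9 CPM, with no overlap. Lamc1 and Lama5 were -0.76 ± 0.21 and -0.94 ± 0.20 against control, under a 2-fold difference. Lama1 (0.99 ± 0.87) and Lamc3 (-0.33 ± 0.53), both scarce in the lung, were not called. Between 4T1 and 4T07 lungs Lama5 sat at the limit (1.00 ± 0.19).

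Further integrin genes fell with them. Itga8 measured 160.0, 159 and 136 CPM in control, 99.0, 114 and 103 CPM in 67NR, 17.8, 20.9 and 23.6 CPM in 4T07 and 93.5, 73.6 and 119 CPM in 4T1 lungs. It had the largest fall of any member in 4T07 lungs (-2.81 ± 0.19 (SE, adjusted p = 2.33e-10)). Itgb6 gave 46.4, 45.4 and 35.8 CPM in control and 9.74, 6.19 and 14.3 CPM in 4T07 lungs (-2.02 ± 0.22). Itga1 (-1.24 ± 0.16), Itgb1 (-1.19 ± 0.14), Itgbl1 (-1.55 ± 0.33) and Itga9 (-1.04 ± 0.14), a chain that binds tenascin and VCAM-1, completed the 12. Without control library 5 or 4T07 library 26 the difference of Itga9 was -0.96 or -0.95, just short of the limit. Itga3 was not called against control but was lower in 4T07 than in 4T1 lungs (1.35 ± 0.20 for 4T1 against 4T07). Of the 32 partner genes 13 were lower in 4T07 lungs, where 3015 of the 21937 genes tested were called lower. They were led by vitronectin (Vtn, -2.51 ± 0.37), Tnc (-2.13 ± 0.30) and Icam2 (-2.09 ± 0.16). The markers of lung structure moved the same way: the alveolar epithelium list was 5935 to 14756 CPM in 4T07 and 35532 to 37744 CPM in control lungs (4 of 6 markers lower), the endothelium list 1083 to 1752 against 3107 to 3520.0 CPM (4 of 7 lower) and the fibroblast list 548 to 738 against 1307 to 1514 CPM (4 of 7 lower). Their part in the falls was not tested.

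In 4T07 lungs 7 members rose, most of them chains of blood cells. Itgb3 measured 7.84, 6.13 and 7.28 CPM in control, 10.9, 13.0 and 12.2 CPM in 67NR, 69.9, 83.8 and 64.2 CPM in 4T07 and 15.3, 20.9 and 9.29 CPM in 4T1 lungs. Itga2b read 3.14, 5.77 and 3.24 CPM in control, 4.02, 10.2 and 9.69 CPM in 67NR, 65.0, 77.4 and 46.6 CPM in 4T07 and 13.5, 13.0 and 6.15 CPM in 4T1 lungs. These 2 chains of the platelet receptor rose by 3.42 ± 0.23 (SE, adjusted p = 3.25e-10) and 4.03 ± 0.33 (SE, adjusted p = 5.27e-09) in 4T07 lungs, and by 1.11 ± 0.24 and 1.44 ± 0.36 in 4T1 lungs. Platelet and megakaryocyte markers summed to 962 to 1402 CPM in 4T07, 70.7 to 103 CPM in control and 89.8 to 153 CPM in 4T1 lungs, with 7 of 7 markers higher in 4T07 and 1 of 7 in 4T1. Itgad gave 1.22, 0.180 and 0.486 CPM in control, 8.47, 7.02 and 8.24 CPM in 4T07 and 0.644, 0.141 and 0.600 CPM in 4T1 lungs (3.67 ± 0.47 for 4T07). The 4T07 lungs alone held it above 1.22 CPM, a level that control spleens exceeded in every library. Itga4 measured 55.6, 47.4 and 46.3 CPM in control and 167, 179 and 128 CPM in 4T07 lungs (1.73 ± 0.17). Of the 7 leukocyte integrin chains Itgam and Itgad were the 2 called. Itgax went the other way by less than 2-fold, at 20.7, 20.9 and 17.4 CPM in 4T07 against 39.0, 39.1 and 29.8 CPM in control lungs (-0.81 ± 0.18 (SE, adjusted p = 0.00108)), without overlap. Vcam1, the ligand of the alpha-4 chain, averaged 433 against 159.9 CPM, and Madcam1, the mucosal ligand of alpha-4/beta-7 that is also made in splenic sinuses, 8.97 against 0.357 CPM (4.68 ± 0.62), against 24.5 CPM on average in control spleens. B cell markers (321 to 431 against 89.5 to 117 CPM in control) and erythroid markers (71540.1 to 92368 against 17747 to 26192 CPM) rose with these genes, as did the exocrine pancreas list given above, and their part was not tested. In healthy mice all 5 B cell, 6 erythroid, 5 exocrine pancreas and 7 platelet markers were lower in lungs than in spleens. All 6 alveolar epithelium markers were higher in those lungs. Whether the 4T07 lung samples held other tissue was not tested. Itga10 was called at no more than 1.08 CPM in any of these libraries, and the call was lost without control library 4, 5 or 6 or 4T07 library 26 or 27 (differences of 1.38 to 2.55).

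Itgam rose in the lungs of both invasive models. It measured 20.4, 18.9 and 22.3 CPM in control, 28.7, 23.2 and 20.8 CPM in 67NR, 167, 169 and 158 CPM in 4T07 and 206, 285 and 106 CPM in 4T1 lungs. Control and 67NR libraries overlapped, and both invasive groups lay above them by 3.06 ± 0.25 (SE, adjusted p = 4.78e-09) in 4T07 and 3.28 ± 0.25 (SE, adjusted p = 1.98e-08) in 4T1. Itgb2l, a homolog of the leukocyte beta chain gene found in neutrophils, gave 0.349, 0.180 and 0.324 CPM in control, 8.89, 12.0 and 7.59 CPM in 4T07 and 3.38, 3.81 and 0.450 CPM in 4T1 lungs (5.02 ± 0.58 and 3.08 ± 0.68). The 8 neutrophil markers summed to 23719.5 to 28349 CPM in 4T07 and 11677 to 27839.6 CPM in 4T1 lungs, against 238 to 306 CPM in control and 67NR lungs, and 8 of 8 and 8 of 8 were called higher. The 4T1 lung with the lowest neutrophil sum (library 39, 11677 CPM) was also the lowest of its group for Itgam, Itgb2l, Itga2b and Itgb3. The beta partner of Itgam, Itgb2, measured 94.8, 84.9 and 62.8 CPM in control and 121, 120.0 and 90.5 CPM in 4T1 lungs and was not called. Without 4T1 library 38 the Itgb3 difference of 4T1 lungs dropped to 0.79, under 2-fold. The promoters of Itgam and Itgb2l, which rose together in lungs and spleens of both invasive models, are given from the same source, with the motifs named above in capitals.
Itgam, chr7:128062390-128062689, plus strand: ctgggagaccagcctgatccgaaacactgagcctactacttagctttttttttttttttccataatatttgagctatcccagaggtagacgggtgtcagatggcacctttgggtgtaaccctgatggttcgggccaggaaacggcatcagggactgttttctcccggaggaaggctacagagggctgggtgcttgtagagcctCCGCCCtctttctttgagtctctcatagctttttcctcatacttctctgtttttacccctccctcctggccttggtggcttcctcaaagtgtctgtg
Itgb2l, chr16:96443565-96443864, minus strand: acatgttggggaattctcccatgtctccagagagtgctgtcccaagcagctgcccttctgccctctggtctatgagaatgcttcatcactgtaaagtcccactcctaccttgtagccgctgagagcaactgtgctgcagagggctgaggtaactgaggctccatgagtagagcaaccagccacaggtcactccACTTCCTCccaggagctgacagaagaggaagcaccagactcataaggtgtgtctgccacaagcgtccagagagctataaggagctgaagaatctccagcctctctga
The Itgam window held 1 GC box and the Itgb2l window 1 PU.1 motif on the reverse strand.

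In 67NR lungs the 1 member called was Itgb4, at 6.51, 9.26 and 7.96 CPM against 2.96, 1.26 and 4.53 CPM in control (1.32 ± 0.32 (SE, adjusted p = 0.0157)). The groups did not overlap, but without control library 5 the difference was 0.97 and was not called. Its partner chain Itga6 was 172, 141 and 152 CPM against 111, 132 and 143 CPM and not called. Of the 32 partner genes 1, perlecan (Hspg2), was higher (1.11 ± 0.20), where 4.25% of all genes were called. Cardiac muscle markers were higher in one of these lungs (library 15, 415 CPM) than in any other.

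**Figure D3:**
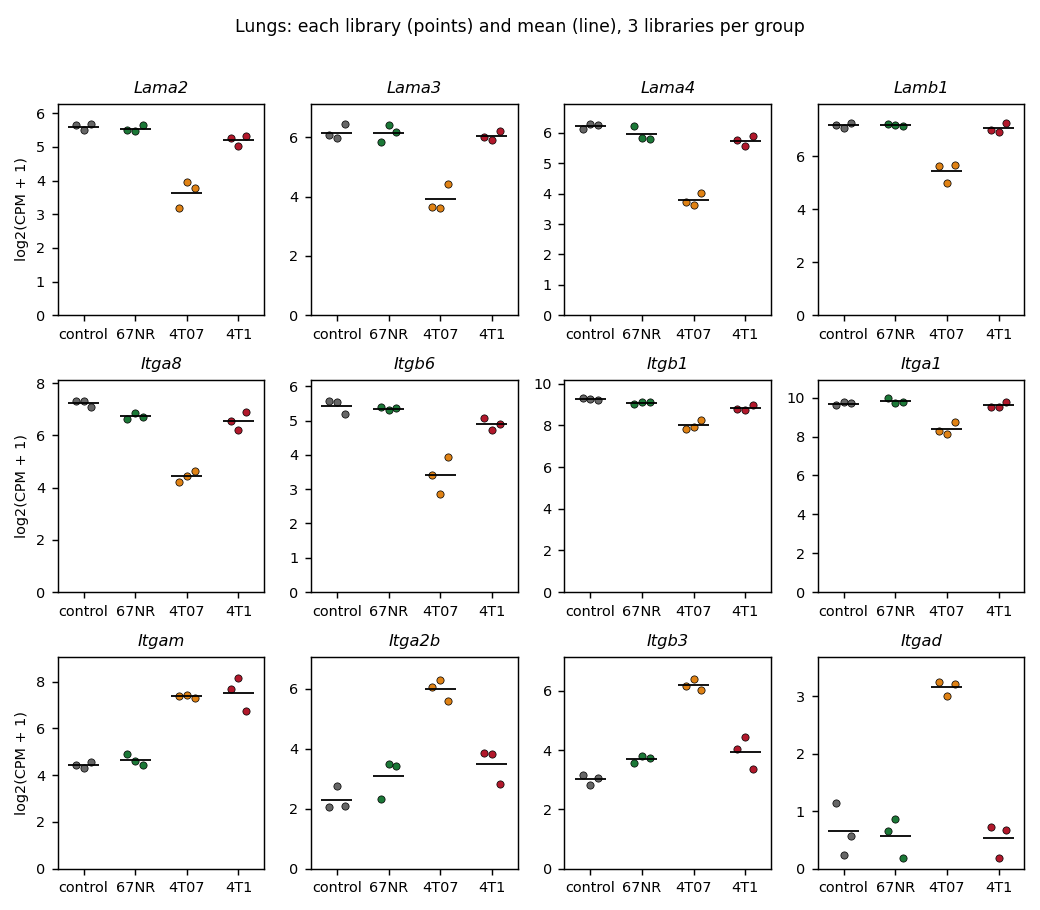
Levels of 12 members in the 12 lung libraries as log2(CPM + 1); points are libraries, lines group means, and each panel starts at 0 with its own scale. The 4T07 points are lowest for Lama2, Lama3, Lama4, Lamb1, Itga8, Itgb6, Itgb1 and Itga1 and highest for Itga2b, Itgb3 and Itgad, and both invasive models are high for Itgam.

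In spleens Itgam, Itga2b, Itgb3 and Itgb2l rose in both invasive models. Against control spleens 12 of 39 members differed in 4T07 mice (6 higher, 6 lower, against 18.6% of all 21128 genes) and 9 in 4T1 mice (5 higher, 4 lower, against 19.9%), which is 30.8% and 23.1% of the members. Between 4T1 and 4T07 spleens 3 members differed, all lower in 4T1 (against 2.33%). In 67NR spleens edgeR called no member (against 2.26% of all genes) and DESeq2 none. At an unadjusted p under 0.05 in edgeR, with no fold limit, there were 6 members, and the share of all genes at that limit was not computed. Both invasive comparisons use the same control libraries.

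Itgam measured 34.0, 33.5 and 28.0 CPM in control, 37.3, 32.7 and 23.5 CPM in 67NR, 222, 195 and 157 CPM in 4T07 and 156, 97.0 and 221 CPM in 4T1 spleens. The invasive groups overlapped with each other and lay apart from the other 2, by 2.75 ± 0.27 (SE, adjusted p = 3.10e-06) and 2.58 ± 0.27 (SE, adjusted p = 4.23e-06). Itga2b read 21.9, 24.9 and 17.9 CPM in control, 102, 75.8 and 73.9 CPM in 4T07 and 79.6, 41.9 and 71.1 CPM in 4T1 spleens (2.12 ± 0.23 and 1.83 ± 0.23). Itgb3 gave 36.3, 38.3 and 39.5, 100.3, 104 and 103 and 81.7, 41.9 and 76.8 CPM (1.60 ± 0.22 and 1.08 ± 0.22). In 4T1 spleens 1 library (41) was below the other 2 in all 3 genes, and it was also the lowest in neutrophil (12478 CPM) and platelet markers (712 CPM). Without 4T1 library 40 or 42 the Itgb3 difference of that group fell just under 2-fold (0.91 or 0.93). Itgb2l rose from 0.194, 0.231 and 0.216 CPM in control to 10.1, 4.49 and 6.01 CPM in 4T07 and 5.51, 1.22 and 6.85 CPM in 4T1 spleens, and Itga5, the fibronectin receptor chain, rose in both models at no more than 2.64 CPM in any library (not called in 4T1 without library 40). Neutrophil markers summed to 24947 to 30566 CPM in 4T07, 12478 to 32736 CPM in 4T1 and 971 to 1714 CPM in control spleens, and platelet and megakaryocyte markers to 1544 to 2136, 712 to 1621 and 308 to 512 CPM. Their part was not tested.

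Itga8, Itga1 and Itga11 fell in both invasive models, and Itgax, Itgb7 and Lama2 in 4T07. Itga8 measured 16.1, 6.69 and 7.12 CPM in control, 1.65, 1.55 and 0.859 CPM in 4T07 and 2.64, 3.43 and 1.60 CPM in 4T1 spleens (-2.66 ± 0.43 (SE, adjusted p = 2.66e-04) and -1.73 ± 0.40 (SE, adjusted p = 0.00394)). Itga1 gave 184, 177 and 219, 81.7, 68.7 and 90.8 and 63.0, 68.1 and 59.6 CPM (-1.09 ± 0.16 and -1.35 ± 0.16), and its 67NR libraries (192, 175 and 201 CPM) overlapped the controls. For both genes every library of the invasive models lay below every control. Itgax read 32.6, 38.1 and 45.7 CPM in control and 15.6, 12.8 and 16.3 CPM in 4T07 spleens (-1.21 ± 0.20), and Itgb7 43.7, 44.8 and 36.0 and 18.1, 15.5 and 19.8 CPM (-1.06 ± 0.21, and -0.99 without 4T07 library 29). In 4T1 spleens the same 2 genes were lower by less than 2-fold in the fit, which scales libraries by TMM factors. They measured 13.7, 20.3 and 18.1 CPM for Itgax and 16.8, 20.8 and 17.8 CPM for Itgb7. In mean CPM, which carries no such factor, both differed from control by more than 2-fold. Itga11 fell in both models (-1.15 ± 0.44 and -1.50 ± 0.47), from 4.66, 8.54 and 11.2 CPM in control to 1.24, 5.87 and 2.00 CPM in 4T07 and 2.88, 2.69 and 1.60 CPM in 4T1 spleens. The 4T07 libraries overlapped the controls for it, and the 4T07 call was lost without any 1 of control libraries 8 and 9 or 4T07 libraries 28 and 30 (-1.12 to -0.73). Lama2 measured 15.5, 17.8 and 12.3 CPM in control and 9.06, 5.35 and 5.15 CPM in 4T07 spleens (-1.05 ± 0.29, and -0.95 to -0.93 without control library 8 or 4T07 library 29 or 30), and Itga7 fell in 4T1 spleens at no more than 3.92 CPM in any library (not called without control library 8). The endothelium list summed lower in the same libraries (194 to 312 against 445 to 614 CPM in control), with 1 of 7 markers called lower in 4T07 and 4 of 7 in 4T1. B cell markers were lower too (224 to 436 against 801 to 949 CPM, 2 of 5 called in 4T07 and 3 of 5 in 4T1). So were T cell markers (88.2 to 117 against 225 to 267 CPM, 5 of 6 lower in 4T07 and 3 of 6 in 4T1). The NK cell list also summed lower (96.0 to 129.5 against 154 to 208 CPM), but was split, with 3 of 4 markers lower and 1 higher in each model. Dendritic cell markers summed to 59.9 to 86.3 against 110.4 to 136 CPM, with 1 of 4 and 0 of 4 called lower. Their part was not tested.

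Lamb1 was the laminin that set 4T07 spleens apart. It measured 5.24, 6.69 and 4.74 CPM in control, 9.42, 7.92 and 8.30 CPM in 67NR, 27.2, 15.4 and 15.2 CPM in 4T07 and 2.88, 2.94 and 3.88 CPM in 4T1 spleens. Every 4T07 library lay above every other spleen library, by 1.95 ± 0.26 (SE, adjusted p = 4.79e-05) against control, and 4T1 lay below 4T07 by -2.47 ± 0.28 (SE, adjusted p = 1.39e-04). Its usual gamma partner Lamc1 did not follow (11.1, 6.56 and 5.15 CPM in 4T07 against 8.16, 6.00 and 7.55 CPM in control, not called). Osteopontin (Spp1), an integrin ligand among the 32 partner genes, had the same order, with means of 122 against 15.9 CPM in 4T07 and control and 13.5 against 122 CPM in 4T1 and 4T07 spleens. Alveolar epithelium markers were 52.4 to 96.4 CPM in 4T07 and 8.77 to 34.5 CPM in all other spleens, small beside the lungs. Of 6 skeletal muscle markers 5 were higher in 4T07 than in control spleens and 3 lower in 4T1 than in 4T07 spleens. The part of these markers was not tested. Itga3 (-1.15 ± 0.31) and Itga2 (-1.01 ± 0.25) were lower in 4T1 than in 4T07 spleens, at 4.55, 11.8 and 6.40 against 22.0, 19.0 and 11.7 CPM and 5.99, 5.88 and 6.17 against 11.7, 10.4 and 16.9 CPM. Itga3 overlapped between these groups, and without 4T1 library 40 or 42 Lamb1 was the only one of the 3 that was called. The adaptor Parvb rose in both invasive models (2.29 ± 0.22 and 2.18 ± 0.22), as did paxillin (Pxn, 1.32 ± 0.19 and 1.55 ± 0.19) and zyxin (Zyx, 1.41 ± 0.21 and 1.26 ± 0.21), all scaffold proteins of focal adhesions.

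**Figure D4:**
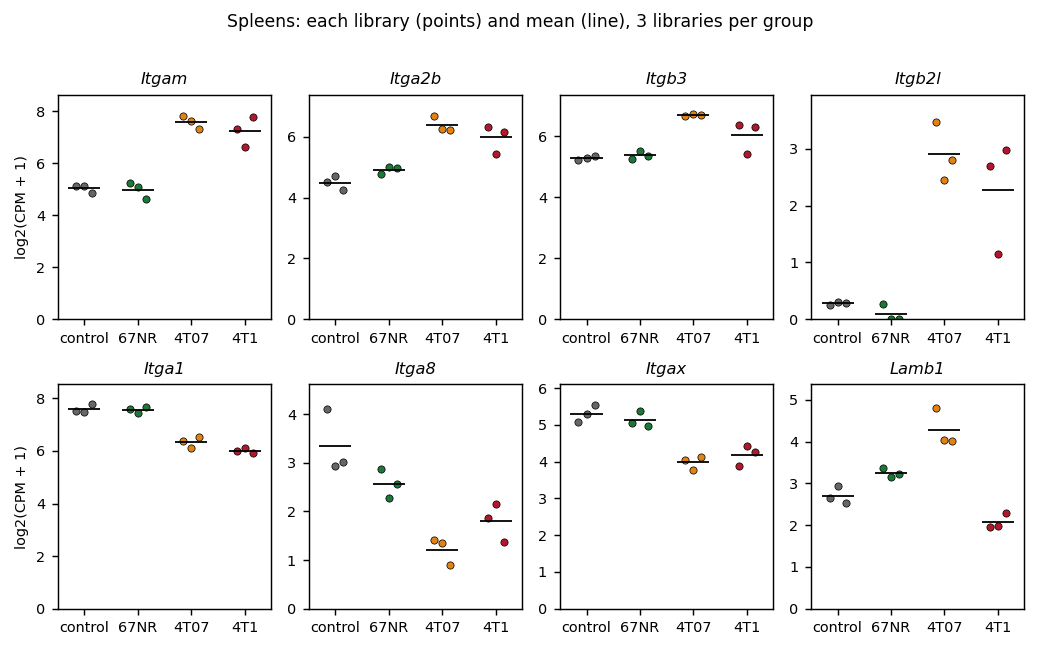
Levels of 8 members in the 12 spleen libraries as log2(CPM + 1); points are libraries, lines group means, and each panel starts at 0 with its own scale. Itgam, Itga2b, Itgb3 and Itgb2l are high in 4T07 and 4T1, Itga1, Itga8 and Itgax are low in both, and Lamb1 is high in 4T07.

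In the scaffolds few of these genes were called, and few of all genes. No member was called in 67NR scaffolds against control by edgeR (against 0% of all 22156 genes called) or by DESeq2. None was called in 4T1 scaffolds by either tool (against 0.0226% of all genes called by edgeR). At an unadjusted p under 0.05 in edgeR, with no fold limit, there were 3 members in 67NR and 5 in 4T1 scaffolds. The share of all genes at that looser limit was not computed. In 4T07 scaffolds 2 of 38 members were called, both higher (against 7.44%), and 1 was lower in 4T1 than in 4T07 scaffolds (against 1.00%). Lamc3 was too low for the test.

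The epithelial laminin chains Lama3 (2.45, 3.14 and 2.02 CPM in 4T07 against 0.839, 1.58 and 2.05 CPM in control scaffolds) and Lamb3 (1.35, 0.983 and 0.621 against 2.10, 0.317 and 2.52 CPM) were not called. The call of Itgb2l in 4T07 scaffolds rested on 2.20, 0.983 and 0.155 CPM in 4T07 against 0, 0.158 and 0 CPM in control scaffolds, where the whole control group held 1 count. Itgad was lower in 4T1 (0, 0 and 0.180 CPM) than in 4T07 scaffolds (3.55, 0.786 and 0.311 CPM), and leaving out any single library of the 2 groups ended that call. Library 22 had the highest level of both genes in scaffolds, and of Itga2b (15.3 CPM, 1.80 to 3.33 CPM outside the 4T07 group). It also had the highest sums of erythroid cell (25114 CPM), neutrophil (8633 CPM) and B cell markers (96.3 CPM) among scaffolds. Without it 1 member was called in 4T07 scaffolds against control.

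Below 2-fold, more members moved in 4T07 scaffolds. Lama2 measured 31.5, 30.9 and 37.1 CPM in control and 19.6, 22.2 and 18.0 CPM in 4T07 scaffolds (-0.88 ± 0.18 (SE, adjusted p = 0.00485)). Lama4 gave 86.4, 89.8 and 88.3 and 54.6, 56.8 and 59.8 CPM (-0.77 ± 0.14 (SE, adjusted p = 0.00238)), and Itgbl1 43.2, 30.4 and 48.2 and 21.2, 26.7 and 24.5 CPM (-0.89 ± 0.19 (SE, adjusted p = 0.00601)). All 4T07 libraries of these 3 genes lay below all other scaffolds, including the 67NR and 4T1 libraries. Itgb1 was lower too (-0.79 ± 0.21). Itgav (0.73 ± 0.21), Itgb5 (0.61 ± 0.20), Itga6 (0.58 ± 0.18) and Itgax (0.52 ± 0.17) were higher, each at an adjusted p under 0.10. The share of all genes at that limit with no fold limit was not computed, and the share without overlap is not given here. Itgav, the vitronectin receptor chain, read 40.1, 59.7 and 73.4 CPM in control and 88.8, 95.3 and 130.2 CPM in 4T07 scaffolds without overlap. In 4T1 scaffolds library 35 had 169 CPM of Lamc1, 58.4 CPM of Itgal and 12.3 CPM of Itga3, above all other scaffolds.

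**Figure D5:**
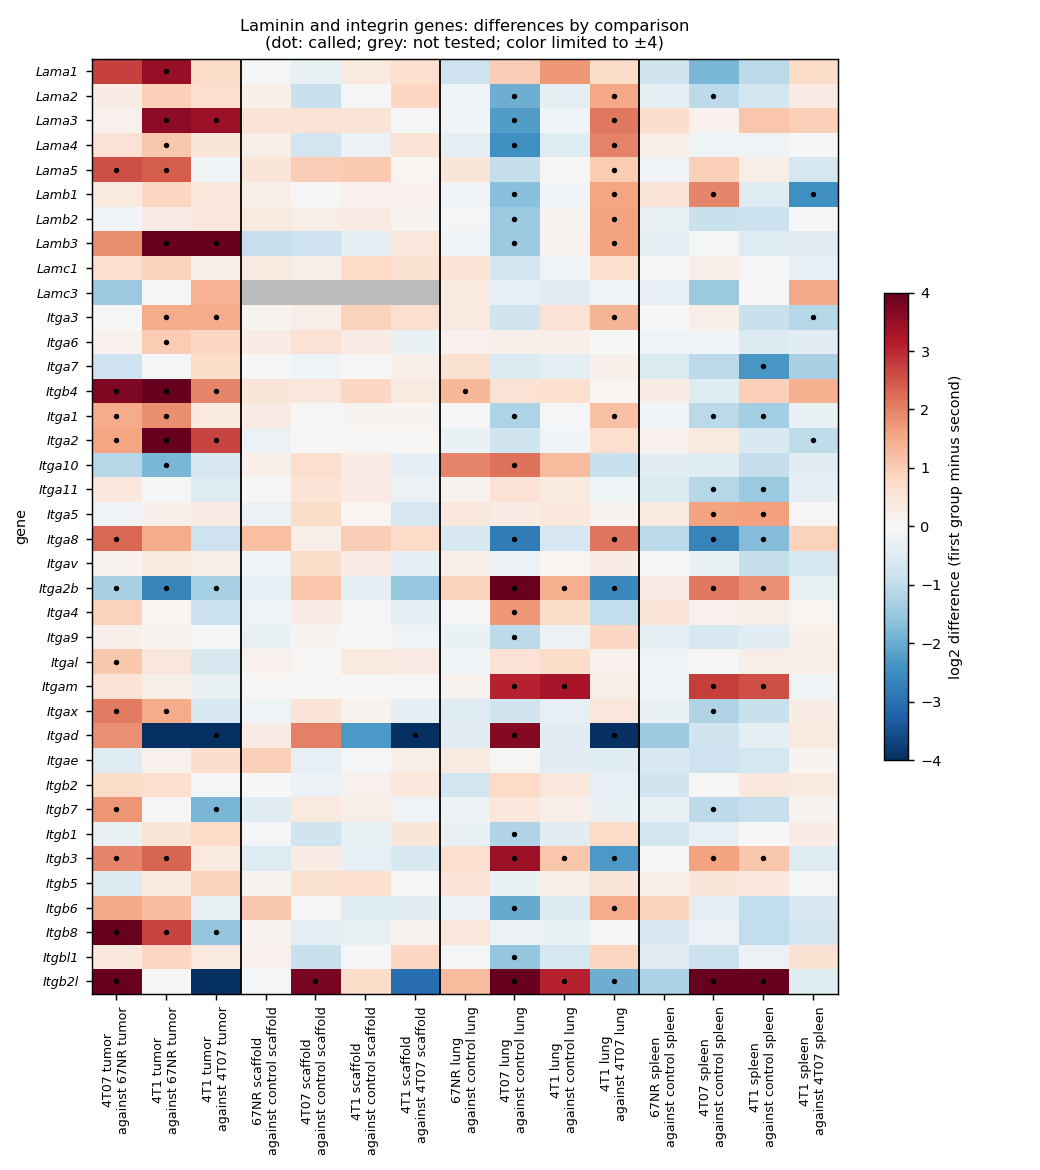
Log2 differences of 38 of the genes (rows) in the 15 comparisons among tumors, scaffolds, lungs and spleens (columns, first group minus second), red higher and blue lower, color limited at 4; dots mark called genes and grey marks Lamc3, not tested in scaffolds. The 4 scaffold columns hold 2 dots in all and the 4T07 lung column 19; for Itgad and Itgb2l deep colors can stand for counts near 0.

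The change from control to 4T1 mice was compared between tissues by testing the difference of the log2 differences over all 36 libraries outside the tumors, at an adjusted p under 0.10 with no fold limit. Between scaffold and lung 3 of 39 members differed (against 1.05% of all 26665 genes tested), Itgam most, which rose in 4T1 lungs and not in 4T1 scaffolds (298, 262 and 346 CPM against 308, 279 and 235 CPM in control scaffolds). Between scaffold and spleen 13 members differed (against 15.2%), and between lung and spleen 8 (against 16.8%). The spleen comparisons share the spleen libraries.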

How the data were processed

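RNA of 9 tumor, 12 scaffold, 12 lung and 12 spleen libraries was read by QuantSeq 3' sequencing. The authors deposited raw counts per gene symbol and library. Reads had been trimmed with Trim Galore 0.5.0, aligned with STAR 2.6.0 and counted with featureCounts, as the submitters' processing notes give, and the genome build is not given in the sources used here. 3' counts do not depend on transcript length. Levels are compared here between groups for a gene and not between genes. Counts of repeated symbols (120 extra lines of 55487) were added together. Groups were taken from the sample titles. Mice of different tissues are not linked by the labels. A p-value sets a group difference against the spread between libraries within groups, estimated over all groups of the fit, with 3 libraries in each group.

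Genes with more than 10 counts over the libraries of a fit were tested with edgeR 4.0.16 (R 4.3.3) by its quasi-likelihood test after TMM scaling, with p-values adjusted over every gene in the fit (Benjamini-Hochberg). Separate fits covered tumors, scaffolds, lungs, spleens and the control tissues, and another fit of 36 libraries the difference of changes between tissues. A gene was called at an adjusted p under 0.05 (tumors, control tissues) or 0.10 (other comparisons) with a more than 2-fold difference, and at an adjusted p under 0.10 with no fold limit between tissues. SE is the log2 difference divided by the root of F. CPM divides counts by library total, and 3 counts, or 0.367 to 0.859 CPM, were taken as the floor against a group without counts, which covers counting error only. Called members with a mean of at least 5 CPM in the higher group, up to 6 in each direction, are given in every library, except 1 member that is not reported here beyond its place in the counts. Others are given by count or named with their role, and at most 3 partner genes per direction are named. Scripts were tested on simulated counts. Alternatives were DESeq2 1.42.0, its size factors in edgeR, no count filter, fits of the compared groups alone, each library left out, and CPM with TMM factors. The members, partner and marker lists were chosen with earlier results of these data known.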

Additional observations from a re-analysis of the deposited data

Results flagged for a closer look

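For several members the change from control to 4T1 mice differed between tissues, by the test of the difference of the log2 differences (edgeR quasi-likelihood, p-values adjusted over all genes, 3 libraries in each of the 4 groups). These tests share their control and 4T1 libraries between pairs of tissues. A negative value means that the change was lower in the tissue named first.

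Between scaffold and lung, Itgam differed by -3.24 ± 0.37 (SE), the alpha chain of Mac-1 having risen in 4T1 lungs. Itgb3 differed by -1.42 ± 0.31 and Itga4 by -0.80 ± 0.21. Without 4T1 lung library 38 Itgam was the only 1 of the 3 still called, with Itgb3 at -1.11 and Itga4 at -0.63.

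Between scaffold and spleen, 3 members had the lower change in scaffolds: Itgam -2.55 ± 0.37, Itga2b -2.23 ± 0.61 and Itgb3 -1.40 ± 0.28. Of the 4 laminin-binding integrin chains 3 had the higher change in scaffolds, Itga6 0.87 ± 0.22, Itga3 1.80 ± 0.59 and Itga7 2.36 ± 0.78, and Itgb4 was not called (-0.15 ± 0.69). Lamb2, the laminin beta chain of synapses and kidney, differed by 1.20 ± 0.28. The collagen receptor chains Itga1 and Itga11 differed by 1.44 ± 0.23 and 1.83 ± 0.50. Itga8 and Itgav, which bind RGD ligands, differed by 2.73 ± 0.63 and 1.28 ± 0.34. Itga8 averaged 0.841 CPM in control scaffolds, near the floor, so its scaffold side rests on few counts. The leukocyte chains Itgax and Itgb7 differed by 1.05 ± 0.25 and 1.15 ± 0.38. Without 4T1 scaffold library 35, in which Itga3 was high, its difference was 1.11 and not called.

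Between lung and spleen, all 8 differences were higher in lungs: Lama1 2.82 ± 1.12, Itga11 1.88 ± 0.55, Itga3 1.43 ± 0.50, Itga1 1.25 ± 0.23, Itgb7 1.10 ± 0.38, Itgav 0.99 ± 0.35, Lamb2 0.96 ± 0.27 and Itga6 0.75 ± 0.22. Lama1 was at no more than 1.55 CPM in any of these libraries and was not called by DESeq2. Without 4T1 spleen library 40 the count of 8 fell to 5.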

How the results depend on the processing

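No alternative reversed the direction of a called member. Of 2121 recomputed differences of called members 1981 stayed called and 140 did not. Of 228 recomputed counts of called members 205 lay within 1.5 times the value given above. The exceptions follow. In 4T07 scaffolds against control the count of 2 was 1 by DESeq2, 4 without the count filter, and 1 to 4 with single libraries left out (1 without library 1 or 22, 4 without library 24). In 4T1 against 4T07 scaffolds the count of 1 was 3 without the filter, 0 with these groups alone and 0 in every fit with a library left out. In 67NR lungs the count of 1 ranged from 0 (without control library 5) to 2 (without 67NR library 13). In 67NR spleens the count of 0 was 2 without the filter, 1 with these groups alone and 0 to 2 with libraries left out (2 without control library 9). In 4T1 against 4T07 spleens the count of 3 came to 1 to 2 (1 without 4T1 library 40 or 42). Between tissues, the count of 3 for scaffold and lung was 5 without the filter and 1 to 3 with libraries left out (1 without 4T1 lung library 38), and the count of 8 for lung and spleen was 5 to 9 (5 without 4T1 spleen library 40). The cause was not tested. CPM with TMM factors moved 46 of 585 group levels by more than 1 SD. No paired analysis was possible because replicate numbers name single libraries. With 3 libraries a group, members under about 5 CPM rest on few counts, and a difference that was not called is not shown to be absent.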

Other observations

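Among the 32 genes that work with laminins and integrins, the control tissues differed in 15 (scaffold against lung, against 30.0% of all genes), 18 (scaffold against spleen, against 31.5%) and 24 (lung against spleen, against 36.8%). Osteopontin (Spp1) averaged 2121 against 132 CPM in scaffolds and lungs, and 2121 against 15.9 CPM in scaffolds and spleens. Nephronectin (Npnt), the ligand of alpha-8/beta-1, averaged 559 against 173 CPM in lungs and spleens and 5.76 CPM in scaffolds. Bcam, a receptor for the alpha-5 laminin chain, averaged 48.5 against 10.3 CPM in lungs and spleens and was lower in scaffolds than in lungs (-4.19 ± 0.32 on the log2 scale, edgeR). Madcam1 averaged 0.357 against 24.5 CPM in lungs and spleens. The kindlin genes divided by tissue: Fermt2, of mesenchymal and endothelial cells, was lower in scaffolds than in lungs (-2.66 ± 0.22), and Fermt3, of blood cells, was higher in scaffolds than in lungs (1.76 ± 0.26) and lower in lungs than in spleens (-2.59 ± 0.25).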
